A study of Oryctolagus cuniculus with 17 samples.

Results

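The genes described here are 10 members of the bone morphogenetic protein (BMP) pathway: the ligands BMP2, BMP4, BMP5 and BMP6, the receptors BMPR2 and ACVRL1 with the co-receptor ENG, and the targets ID1, ID3 and SMAD6. They were picked by their symbols as a named set, with no threshold on a measured value, though with earlier results of these data known. Each matched 1 of the 13827 genes of the count table by the human gene name given there. All 10 had enough counts to be tested, and each was the only annotated gene at its locus. RNA-seq counts of 17 right lung homogenates were used. The pups, New Zealand White rabbits, were delivered preterm by C-section at 28 days of gestation, fed a milk replacer and housed in incubators. The hyperoxia groups breathed 95% oxygen until postnatal day 3, 5 or 7 (HT3, HT5 and HT7), and the normoxia groups of the same ages breathed 21% oxygen (NT3, NT5 and NT7). Each group had 3 samples except HT5 with 2, and the samples held 13123731 to 18111086 counts. Preterm birth was common to both arms, and a homogenate mixes all cell types of the lung. The labels do not say which pups shared a litter, and the p-values therefore measure the spread between these samples.

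BMP ligands are secreted proteins of the TGF-beta superfamily that bind complexes of type I and type II receptors on the cell surface. The type II receptor, for which BMPR2 is the main BMP-dedicated gene, activates the type I receptor, which then phosphorylates SMAD1, SMAD5 and SMAD9, and these enter the nucleus with SMAD4 and switch on target genes such as ID1, ID3 and SMAD6. In the lung, ACVRL1 (also called ALK1) and ENG (endoglin) are best known as receptor and co-receptor of endothelial cells, and inherited loss of function of BMPR2, ACVRL1 or ENG is a known cause of disease of the lung vessels. Secreted antagonists such as chordin and noggin bind the ligands and keep them from the receptors.

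On day 3 no member passed the test between hyperoxia and normoxia, and on day 7 the receptors BMPR2, ACVRL1 and ENG, the inhibitory SMAD6 and the ligand BMP4 were lower in hyperoxia. BMPR2 in HT7 stood at 26.1% of its NT7 level, ACVRL1 at 37.8%, SMAD6 at 47.4%, ENG at 55.1% and BMP4 at 62.0%. The target ID1 did not pass the test on any day, with a 95% interval on day 7 of 0.723 to 1.15 times the control. Levels are CPM, read counts scaled to the TMM-normalized library size, given per sample in the order of replicates 1, 2 and 3. Differences are log2 fold changes (log2FC) of hyperoxia against normoxia with their standard error (SE), from edgeR's quasi-likelihood test, and a gene was called at a p-value under 0.05 after Benjamini-Hochberg adjustment across the 13142 genes that could be tested. CPM are not corrected for gene length, and levels of different genes are therefore not ranked.

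**Figure D1:**
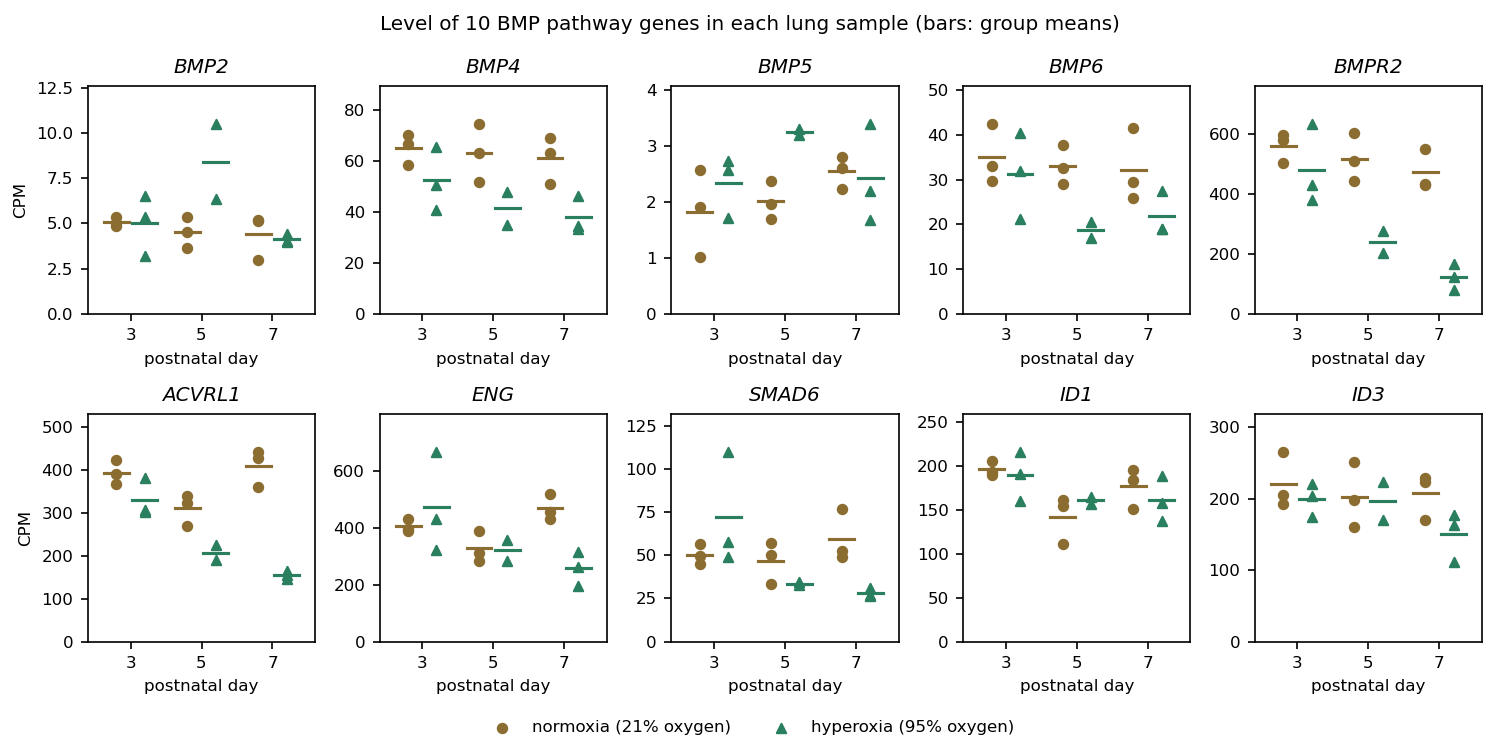
CPM (y axis, linear from 0, each panel on its own scale) of each member in every lung sample by postnatal day (x axis), with circles for normoxia, triangles for hyperoxia and bars for group means. The 3 HT7 samples of BMPR2 sit between 79.3 and 168 CPM and those of NT7 between 431 and 552 CPM, while the 2 arms of ID1 overlap on day 7.

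Among the ligands, BMP4 is a secreted factor that patterns the airway epithelium and mesenchyme of the developing lung. Its gene lies on chromosome 17 from 72720677 to 72723889, on the minus strand (positions are those of the count table, build OryCun2.0). BMP4 reached 46.3, 34.3 and 33.1 CPM in HT7 and 50.9, 69.1 and 63.2 CPM in NT7. The groups did not overlap, although HT7 replicate 1 and NT7 replicate 1 lay close together. BMP4 fell by 0.69 on the log2 scale (log2FC -0.69, SE 0.20, edgeR adjusted p = 0.00997). On day 5 the samples held 47.8 and 34.9 CPM in HT5 against 51.8, 74.5 and 63.1 CPM in NT5, again without overlap, with a log2FC of -0.61 (SE 0.22, edgeR adjusted p = 0.0492). This day 5 call was lost without HT5 replicate 2 (log2FC -0.42, edgeR adjusted p = 0.355), NT5 replicate 2 (0.16) or NT5 replicate 3 (0.0901). A fit without either HT5 sample has 1 sample in that group, which is assumed to vary like the other groups. On day 3 the arms overlapped, with 40.9, 50.5 and 65.6 CPM in HT3 against 58.5, 70.0 and 66.8 CPM in NT3 and a log2FC of -0.32 (SE 0.20, edgeR adjusted p = 0.467).

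BMP6, a ligand known for its part in iron balance and in bone, was called on day 5 alone. It then had 20.5 and 16.9 CPM in HT5 and 32.7, 37.8 and 29.1 CPM in NT5, and fell by 0.83 on the log2 scale (SE 0.28, edgeR adjusted p = 0.0339). Both hyperoxia samples lay below all 3 normoxia samples. The call was lost without HT5 replicate 1 (edgeR adjusted p = 0.056), HT5 replicate 2 (0.224), NT5 replicate 1 (0.0534) or NT5 replicate 2 (0.0979), while the log2FC stayed between -0.98 and -0.71. On day 7 it had 27.6, 19.1 and 18.9 CPM in HT7 and 29.4, 41.5 and 25.9 CPM in NT7, where HT7 replicate 1 reached into the normoxia range. That difference was not called (log2FC -0.56, 95% interval -1.08 to -0.04, edgeR adjusted p = 0.0704), as the interval holds for 1 gene and the p-value is adjusted over all genes. It was called without HT7 replicate 1 (edgeR adjusted p = 0.0324) or NT7 replicate 3 (0.0464). On day 3 the log2FC was -0.17 (SE 0.24, edgeR adjusted p = 0.787).

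BMP2 and BMP5 were scarce, with 1469 and 678 counts over all 17 samples. BMP2, a ligand that binds BMPR2 together with the type I receptor BMPR1A, reached 10.5 and 6.33 CPM in HT5 and 3.64, 4.52 and 5.37 CPM in NT5. Both HT5 samples were above all NT5 samples, and BMP2 rose by 0.90 on the log2 scale (SE 0.31, edgeR adjusted p = 0.0414). This was the only rise called among the members on any day. The log2FC was 0.49 without HT5 replicate 1 (edgeR adjusted p = 0.343), and the call was also lost without HT5 replicate 2 (0.0533), NT5 replicate 1 (0.111) or NT5 replicate 2 (0.0843). On day 7 the samples held 4.04, 3.99 and 4.41 CPM in HT7, which lie within the NT7 range of 2.99 to 5.19 CPM (log2FC -0.10, 95% interval -0.71 to 0.52, edgeR adjusted p = 0.808). BMP5, a ligand close to BMP6 and BMP7 in sequence, had 3.3 and 3.19 CPM in HT5 and 1.7 to 2.38 CPM in NT5 and did not pass the test despite groups that did not overlap (log2FC 0.68, SE 0.37, edgeR adjusted p = 0.175). On day 7 the BMP5 interval ran from -0.80 to 0.65 (edgeR adjusted p = 0.874).

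On day 7 the receptors BMPR2 and ACVRL1 had the log2FC furthest from 0 among the members. BMPR2, the type II receptor, lies on chromosome 7 from 143119349 to 143278103 on the plus strand. It held 79.3, 168 and 122 CPM in HT7 and 433, 552 and 431 CPM in NT7. The highest HT7 sample, replicate 2, lay far below the lowest NT7 sample, and BMPR2 fell by 1.94 on the log2 scale (SE 0.25, 95% interval -2.47 to -1.41, edgeR adjusted p = 3.11e-05). This log2FC stood at percentile 3.94 of all genes tested on day 7. On day 5 BMPR2 held 275 and 203 CPM in HT5 against 442, 603 and 510 CPM in NT5, and was lower there too (log2FC -1.12, SE 0.28, edgeR adjusted p = 0.00804). On day 3 the arms overlapped, with 381, 634 and 429 CPM in HT3 against 504, 598 and 582 CPM in NT3 (log2FC -0.22, SE 0.24, edgeR adjusted p = 0.718). With HT5 replicate 2 left out, the day 5 log2FC was -0.93 and not called (edgeR adjusted p = 0.12). BMPR2 is a long gene of 158755 bp, and on day 7 the 2442 genes of 100 kb and over had a median log2FC of -0.19 with 33.2% called lower, against 0.06 and 19.5% for the 3834 genes under 10 kb. The part of gene length in the BMPR2 result was not tested.

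ACVRL1, the type I receptor of BMP9 and BMP10, lies on chromosome 4 from 36076340 to 36084930 on the plus strand. It held 156, 145 and 164 CPM in HT7 and 442, 427 and 360 CPM in NT7. Every HT7 sample lay below every NT7 sample, and ACVRL1 fell by 1.41 on the log2 scale (SE 0.13, edgeR adjusted p = 2.62e-06). HT5 held 190 and 224 CPM and NT5 held 269, 339 and 323 CPM, likewise without overlap, for a log2FC of -0.58 (SE 0.14, edgeR adjusted p = 0.00668). HT3, with 302, 380 and 306 CPM, overlapped NT3, with 389, 368 and 423 CPM (log2FC -0.26, SE 0.12, edgeR adjusted p = 0.339). At 8591 bp, ACVRL1 belongs to the genes under 10 kb. Without HT5 replicate 1 its day 5 adjusted p was 0.055 (log2FC -0.47).

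ENG, the co-receptor that presents BMP9 and BMP10 to ACVRL1, is placed on the scaffold GL018847 from 663683 to 692319. It was called on day 7 alone, where HT7 had 315, 194 and 263 CPM and NT7 had 517, 455 and 430 CPM. The groups did not overlap, and ENG fell by 0.86 on the log2 scale (SE 0.23, edgeR adjusted p = 0.00605). On day 5 HT5 (284 and 356 CPM) lay inside the range of NT5 (283, 388 and 310 CPM), with a log2FC of -0.03 (95% interval -0.57 to 0.50, edgeR adjusted p = 0.936). On day 3 HT3 had 321, 666 and 431 CPM and NT3 had 431, 389 and 395 CPM (log2FC 0.22, SE 0.22, edgeR adjusted p = 0.691). The 666 CPM belong to HT3 replicate 2, and without that sample the sign turned (log2FC -0.11).

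Of the targets, SMAD6 encodes an inhibitory SMAD that BMP signalling itself induces and that blocks the type I receptors in turn. Its gene spans chromosome 17 from 5668279 to 5727843 on the minus strand. It had 31.2, 26.7 and 26.3 CPM in HT7 and 52.2, 76.6 and 48.8 CPM in NT7, with no overlap, and fell by 1.08 on the log2 scale (SE 0.27, edgeR adjusted p = 0.00461). HT5 held 34.7 and 32.5 CPM against 33.1, 56.9 and 49.9 CPM in NT5, and the difference was not called (log2FC -0.47, 95% interval -1.13 to 0.18, edgeR adjusted p = 0.249). On day 3 SMAD6 had 48.9, 110 and 57.7 CPM in HT3 and 44.7, 56.5 and 49.4 CPM in NT3 (log2FC 0.52, SE 0.27, edgeR adjusted p = 0.371). As with ENG, HT3 replicate 2 was the highest of all 17 samples, and the log2FC without it was 0.08. That sample also stood apart in skeletal muscle genes (ACTA1, MYH8, CKM and MYLPF, of which MYLPF shares its locus and counts with ZNF48), whose summed level was 371 CPM there and 82.3 to 110 CPM in the other day 3 samples. On day 5 the same sum was 342 CPM in HT5 replicate 1 and 56.9 CPM in HT5 replicate 2. The part of these genes' source in the values of the members was not tested.

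ID1 and ID3 encode inhibitors of basic helix-loop-helix transcription factors and are among the most direct readouts of SMAD1 and SMAD5 activity. ID1 had 188, 137 and 158 CPM in HT7 and 195, 184 and 151 CPM in NT7, groups that overlapped almost wholly (log2FC -0.14, 95% interval -0.47 to 0.20, edgeR adjusted p = 0.497). The ID1 intervals ran from -0.39 to 0.28 on day 3 and from -0.19 to 0.55 on day 5. ID3 had 177, 112 and 164 CPM in HT7 and 170, 229 and 224 CPM in NT7, where HT7 replicate 1 exceeded NT7 replicate 1. Its day 7 difference was not called (log2FC -0.46, 95% interval -0.90 to -0.03, edgeR adjusted p = 0.0755) unless NT7 replicate 1 was left out (0.0436), and on days 3 and 5 its log2FC was -0.15 (edgeR adjusted p = 0.783) and -0.04 (edgeR adjusted p = 0.905). ID1 sits on chromosome 4 from 7598254 to 7599318 and ID3 on chromosome 13 from 129667293 to 129667820.

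**Figure D2:**
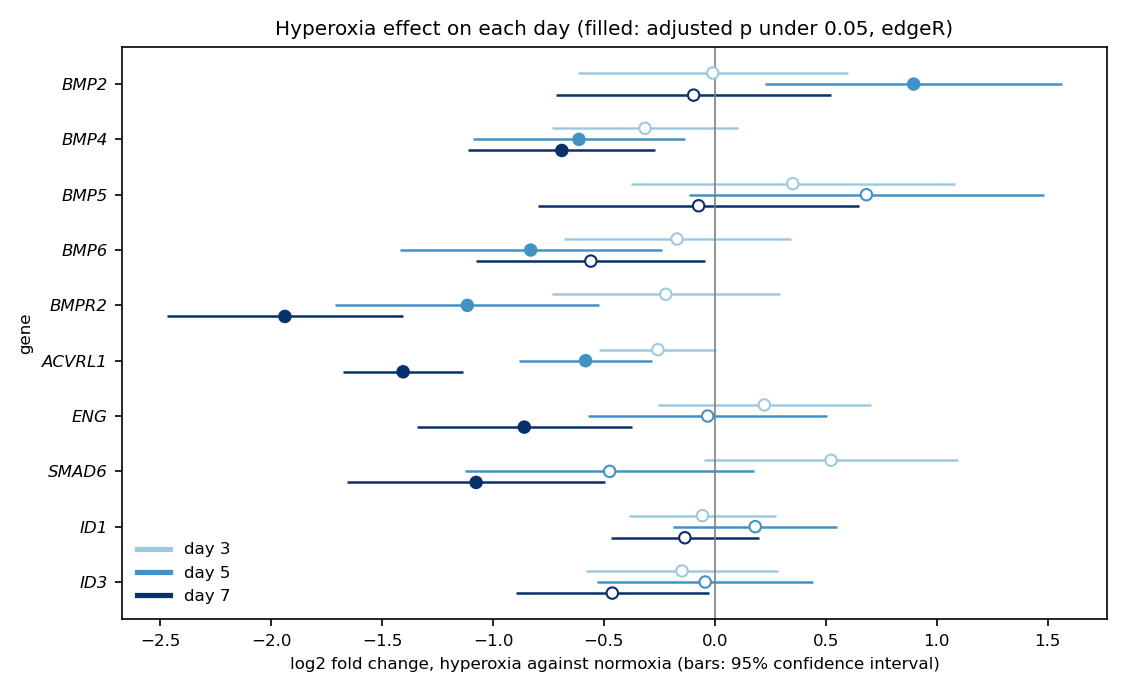
Log2 fold change of hyperoxia against normoxia (x axis) for each member (y axis) on days 3, 5 and 7, with bars for the 95% confidence interval of the single gene and filled points where the adjusted p is under 0.05. No point is filled on day 3, and the day 7 points of BMPR2, ACVRL1, SMAD6, ENG and BMP4 are filled and below 0.

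Counted over the members, 0 of 10 were called on day 3, where 1.03% of all genes tested were. At an unadjusted p under 0.05 the count of members was also 0, beside 2013 of all 13142 genes, and DESeq2 called 0. On day 5, 4 members were lower and 1 was higher, beside 15.4% lower and 15.9% higher over all genes (31.3% called in all). On day 7, 5 were lower and 0 higher, beside 23.7% lower and 23.7% higher over all genes. Since 47.4% of all genes were called on day 7, the 5 of 10 members called in either direction lay near the share of all genes. All 10 members had a day 7 log2FC below 0, as had 6619 of all 13142 genes. On day 3 the arms overlapped for every member, where 26.7% of all genes did not overlap. On day 5, 4 members were lower and 2 higher without overlap (29.2% and 26.5% of all genes), and on day 7, 5 were lower without overlap (27.2% of all genes). The median log2FC of the members was -0.10 on day 3, -0.26 on day 5 and -0.62 on day 7, and that of all genes tested was -0.02 on day 5 and -0.01 on day 7. By the study's own thresholds for differentially expressed genes (DEGs), an adjusted p under 0.01 and a log2FC above 2 or below -2, 0 of 10 members passed on any day, beside 0.0533%, 1.58% and 4.59% of all genes on days 3, 5 and 7. The counts of members called at an unadjusted p under 0.05 were 5 on day 5 and 7 on day 7, beside 5694 and 7088 of all 13142 genes. DESeq2 likewise put 0 members past the DEG thresholds. BMPR2 was closest to them, with its log2FC of -1.94, and passed without HT7 replicate 2 (log2FC -2.22). The day 5 count was the least stable, at 2 without HT5 replicate 1, 1 without HT5 replicate 2, and 3, 2 and 4 without NT5 replicates 1, 2 and 3.

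Whether a member responded differently on day 7 than on day 3 was tested as the difference between the effects of the 2 days. It was called for 4 of 10 members, all more negative on day 7, beside 11.0% of all genes called in that direction and 20.5% in either. The difference was -1.72 for BMPR2 (SE 0.34, edgeR adjusted p = 0.00459), -1.15 for ACVRL1 (SE 0.18, edgeR adjusted p = 0.00141), -1.60 for SMAD6 (SE 0.38, edgeR adjusted p = 0.0105) and -1.08 for ENG (SE 0.32, edgeR adjusted p = 0.0281). BMPR2, ACVRL1 and SMAD6 were called in all 12 fits that left out 1 sample of these groups. ENG was called in 6 of them and lost without HT3 replicate 2 (difference -0.75, edgeR adjusted p = 0.0717), without HT7 replicate 3, NT3 replicates 2 and 3, or NT7 replicates 1 and 2 (edgeR adjusted p = 0.0556, 0.058, 0.0603, 0.0578 and 0.0524). The 4 ligands, ID1 and ID3 were not called.

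Within an arm, edgeR called the same 4 genes between the ages in hyperoxia. Between HT3 and HT7, BMPR2 fell by 1.97 on the log2 scale, SMAD6 by 1.36 (edgeR adjusted p = 0.00111), ACVRL1 by 1.09 and ENG by 0.88 (edgeR adjusted p = 0.00607), which makes 4 of 10 members lower beside 22.0% of all genes (44.3% called in either direction). For these 4 genes all HT7 samples lay below all HT3 samples, as for 24.8% of all genes. DESeq2 called BMP4 as well (log2FC -0.48, DESeq2 adjusted p = 0.0494, against an edgeR adjusted p of 0.0666), and 6 members were called by edgeR without HT3 replicate 1 or without HT7 replicate 1. Between NT3 and NT7, 0 of 10 members were called by edgeR, 0 had an unadjusted p under 0.05 (824 of all 13142 genes did) and DESeq2 called 0, beside 0% of all genes called by edgeR. The normoxia log2FC of these 4 genes lay between -0.25 for BMPR2 and 0.24 for SMAD6. The contrasts over days share the HT7 samples with the day 7 comparison and are therefore not separate evidence for it.

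Since ACVRL1 and ENG are best known from endothelial cells, the level of endothelial marker genes is given beside them. Fewer cells of a type and less RNA per cell cannot be told apart in a homogenate. Of 12 endothelial genes listed, 9 were tested and 3 (CLDN5, ESAM and EGFL7) were not analysed here. On day 7, 7 of the 9 were lower, with log2FC from -2.79 for TEK to -0.92 for EMCN, while PECAM1 (-0.05) and VWF (0.29) were not called. None of the 9 was at 0 in any sample. Their summed level was 1090 to 1480 CPM in HT7 and 2680 to 3240 CPM in NT7, with 1580 to 1700 CPM in HT5 and 2660 to 3250 CPM in NT5, and 2720 to 3190 CPM in HT3 and 3200 to 3540 CPM in NT3. Of 4 alveolar type 1 genes, AGER (log2FC -2.04) and RTKN2 (-3.00) were lower on day 7, while HOPX (0.35) and PDPN (0.15) were not called, and their summed level was 1600 to 2120 CPM in HT7 and 4480 to 5690 CPM in NT7. Of 5 macrophage genes, CD68 (log2FC 1.21) and CD163 (1.49) were higher, MARCO (-2.19) was lower, and MRC1 (-0.83) and CSF1R (0.32) were not called, with sums of 1680 to 2310 CPM in HT7 and 1060 to 1250 CPM in NT7. The sums also lay apart without overlap for 5 smooth muscle and pericyte genes, 3 of them lower (613 to 787 CPM in HT7 and 915 to 1290 CPM in NT7), 5 ciliated cell genes, 2 of them lower (144 to 178 and 259 to 320 CPM), the skeletal muscle genes, 1 of 4 lower (61.6 to 71.2 and 91 to 111 CPM), and the erythroid gene ALAS2, which was lower (35 to 51.7 and 99.7 to 160 CPM). Most of the skeletal muscle sum was MYLPF (59.1 to 63.2 CPM in HT7 and 88.6 to 107 CPM in NT7), the gene called there, which shares its counts with ZNF48. The sums of the alveolar type 2, fibroblast, neutrophil and heart muscle genes overlapped between the arms on day 7. Of 6 fibroblast genes, 1 was called higher and 2 lower. Of 5 alveolar type 2 genes, 1 was higher and 1 lower, and of 5 neutrophil genes 1 was lower. Over all genes 23.7% were called in each direction. On day 5 the sums lay apart, lower in hyperoxia, for the alveolar type 1 (1690 to 2800 CPM in HT5 and 3990 to 4790 CPM in NT5), fibroblast (5600 to 7110 and 8030 to 8980 CPM), smooth muscle and pericyte (708 to 977 and 1040 to 1310 CPM), ciliated and erythroid genes, and higher for the macrophage (1600 to 1640 and 817 to 1390 CPM) and neutrophil genes (682 to 926 and 149 to 680 CPM). On day 3 those of the endothelial, fibroblast and smooth muscle and pericyte genes were lower without overlap, and those of the alveolar type 2, macrophage and neutrophil genes were higher. The part of these cell types in the results on the members was not tested.

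Set against the endothelial sum, the arms of 4 members overlapped on day 7 and the other 6 members were higher in hyperoxia. This scale was chosen after the values were seen and is a description without a test. The divisor itself was lower in hyperoxia, with 1090 to 1480 CPM in HT7 and 2680 to 3240 CPM in NT7. A gene with equal CPM in both arms is therefore higher in hyperoxia on this scale by construction. Per 1000 CPM of the 9 endothelial genes, ACVRL1 stood at 117 ± 13.9 CPM in HT7 and 140 ± 21.9 CPM in NT7 (SD, n = 3 each), ENG at 191 ± 18.8 and 160 ± 28.5 CPM, and SMAD6 at 21.3 ± 3.07 and 20.0 ± 3.47 CPM, with overlapping samples for all 3 genes. BMPR2 ranged from 53.5 to 154 in HT7 and from 148 to 171 in NT7, so that 2 HT7 samples were below the normoxia range and replicate 2 reached into it. ID1 stood at 121 ± 9.24 CPM in HT7 and 60.5 ± 10.9 CPM in NT7, and ID3 at 112 ± 8.67 and 70.4 ± 6.82 CPM, without overlap. The 4 ligands were higher in HT7 on this scale as well, without overlap. The order of the arms was not the same on the other days. On day 5, ENG (mean 196 CPM in HT5 and 112 CPM in NT5), SMAD6 (20.5 and 15.9), ID1, ID3, BMP2 and BMP5 were higher in hyperoxia without overlap and BMPR2 was lower (145 and 178), and on day 3 SMAD6 was higher (17.7 to 34.5 in HT3 and 12.6 to 17.7 in NT3) while the arms of the other 9 members overlapped. A sum that includes VWF and PECAM1, which were not lower, differs less between the arms than its 7 lower genes alone.

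**Figure D3:**
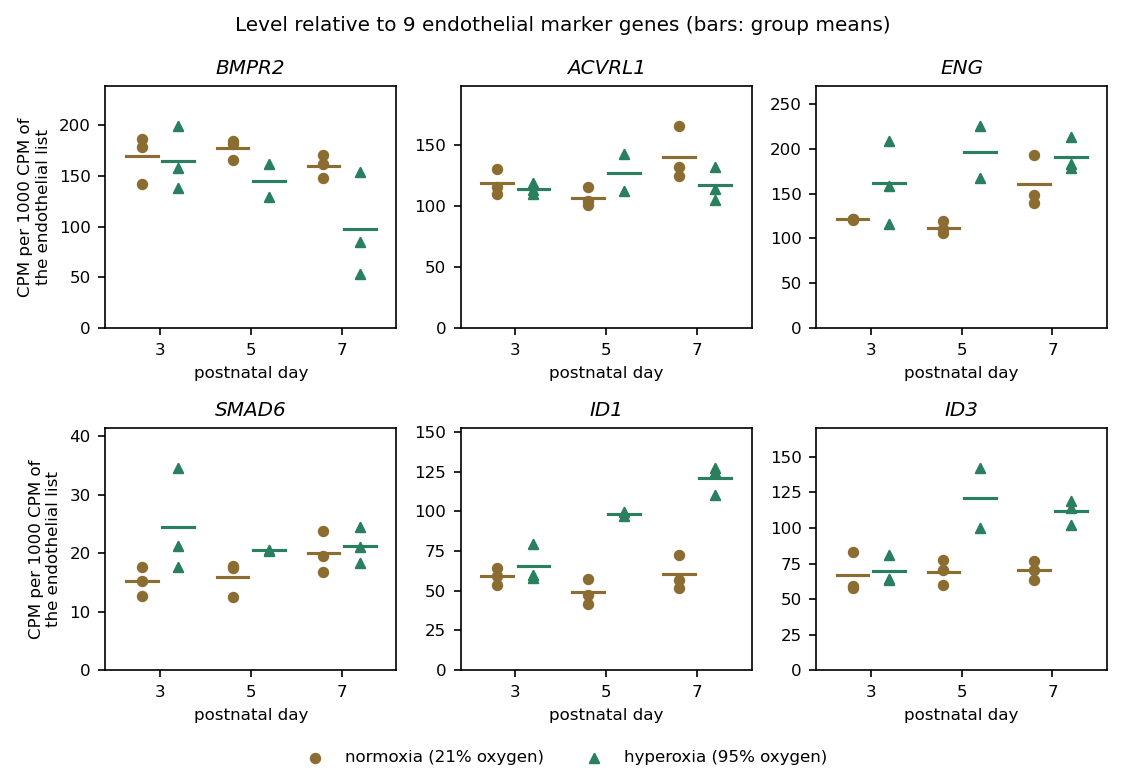
Level of 6 members per 1000 CPM of 9 endothelial genes (y axis, linear from 0) in every sample by postnatal day (x axis), with circles for normoxia, triangles for hyperoxia and bars for group means. On day 7 the arms of ACVRL1, ENG and SMAD6 overlap, while all HT7 samples of ID1 and ID3 lie above all NT7 samples. The endothelial sum used as divisor was lower in HT7 than in NT7.

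The ratio of target to receptor counts within a sample separated the arms from day 5 on. It was also chosen after the values were seen and is given without a test. The divisors ACVRL1 and BMPR2 were themselves called lower in HT5 and HT7, while the targets ID1 and ID3 were not called. A target with equal CPM in both arms therefore has a higher ratio in hyperoxia by construction. The separation restates the receptor calls and is not separate evidence. Counts of ID1 per 100 counts of ACVRL1 were 94.6 to 121 in HT7 and 41.9 to 44.0 in NT7. In HT5 they were 70.2 to 86.9 and in NT5 41.4 to 49.9, while HT3 (50.1 to 70.6) overlapped NT3 (45.6 to 55.9). The size of such a ratio depends on the lengths of both transcripts, and what the values show is its change between samples. Counts of ID3 per 100 of ACVRL1 were 77.3 to 114 in HT7 and 38.4 to 62.2 in NT7, and those of ID1 per 100 of BMPR2 were 81.4 to 237 and 33.4 to 45.

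Of 56 other genes of the BMP pathway, 39 were tested, 4 were in the table but too low, and 13 were not analysed here. On day 3, 0 of 39 were called by edgeR, 7 had an unadjusted p under 0.05 (2013 of all 13142 genes did), and DESeq2 called 1, SMURF2 (log2FC 0.43, DESeq2 adjusted p = 0.0161), a ubiquitin ligase that targets SMADs and their receptors. On day 5, 13 were lower and 4 higher, and on day 7, 19 were lower and 3 higher, with median log2FC of -0.55 and -0.66. Over all genes, 15.4% were lower and 15.9% higher on day 5, and 23.7% were lower and 23.7% higher on day 7. On day 7, 7 of the 39 passed the DEG thresholds, beside 4.59% of all genes. Over 12 alternative fits of day 7 the 22 called genes kept their direction, and those other than CRIM1 (called in 4) and SMAD7 (called in 10, with an edgeR adjusted p of 0.0501 without HT7 replicate 3 and 0.0681 without NT7 replicate 1) were called in each. On day 5, CHRD and TMEM100 were among the genes called in all 11 alternative fits. SMURF2, called by DESeq2 alone on day 3, was higher by edgeR on day 5 (log2FC 0.58, edgeR adjusted p = 0.00317).

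The extracellular antagonists and modulators held the largest differences, with 2 of 14 higher and 7 lower on day 7 (23.7% of all genes in each direction). CHRD encodes chordin, which binds BMP ligands outside the cell. It had 46.1, 24.4 and 42.7 CPM in HT7 and 5.26, 3.78 and 4.42 CPM in NT7, far apart, and rose by 3.07 on the log2 scale, or 8.41-fold (SE 0.27, edgeR adjusted p = 2.54e-06). In HT5 it already held 33.5 and 61.2 CPM against 3.88 to 4.79 CPM in NT5 (log2FC 3.46, edgeR adjusted p = 9.16e-06), and on day 3 HT3 had 6.65 to 8.46 CPM and NT3 4.1 to 5.49 CPM, a difference that was not called (log2FC 0.70, SE 0.26, edgeR adjusted p = 0.216). SOSTDC1, a secreted antagonist of BMP that also modulates WNT signalling, had 9.98, 15.5 and 10.8 CPM in HT7 against 96.5, 82.2 and 76.9 CPM in NT7 (log2FC -2.82, SE 0.23, edgeR adjusted p = 1.16e-06). SOST, which encodes sclerostin, was scarce, with 0.173 to 0.726 CPM in HT7 and 1.93 to 2.7 CPM in NT7 (log2FC -2.65, SE 0.62, edgeR adjusted p = 0.00268). Other calls were those of CRIM1, higher, and KCP, NBL1, BMPER and FSTL1, lower. Antagonists thus moved in both directions at once.

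Among 7 other target genes, 5 were lower and 1 was higher on day 7, where 23.7% of all genes were called in each direction. TMEM100, a membrane protein of the endothelium induced by BMP9 and BMP10 through ACVRL1, had 48.3, 42.6 and 25.5 CPM in HT7 and 211, 283 and 167 CPM in NT7. The arms were far apart on day 5 as well, with 29.9 and 22.8 CPM in HT5 against 136, 168 and 185 CPM in NT5. TMEM100 fell by 2.63 on day 5 (SE 0.35, edgeR adjusted p = 0.000187) and by 2.51 on day 7 (SE 0.29, edgeR adjusted p = 1.47e-05) on the log2 scale. HEYL and HEY1, transcriptional repressors that are also targets of Notch, fell by 2.11 (SE 0.22, edgeR adjusted p = 7e-06) and 1.51 (SE 0.26, edgeR adjusted p = 0.000259) on day 7. HEYL had 13.9, 24.9 and 14.0 CPM in HT7 against 61.0, 77.4 and 88.8 CPM in NT7. The rise was that of MSX2, a homeobox gene, with 4.85, 5.38 and 10.7 CPM in HT7 and 1.09, 1.89 and 3.12 CPM in NT7 (log2FC 1.77, SE 0.49, edgeR adjusted p = 0.00774). HEY2 and ATOH8 were the remaining calls, both lower, and ID2, the third ID gene tested, was not called (log2FC 0.08, 95% interval -0.35 to 0.51, edgeR adjusted p = 0.762).

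**Figure D4:**
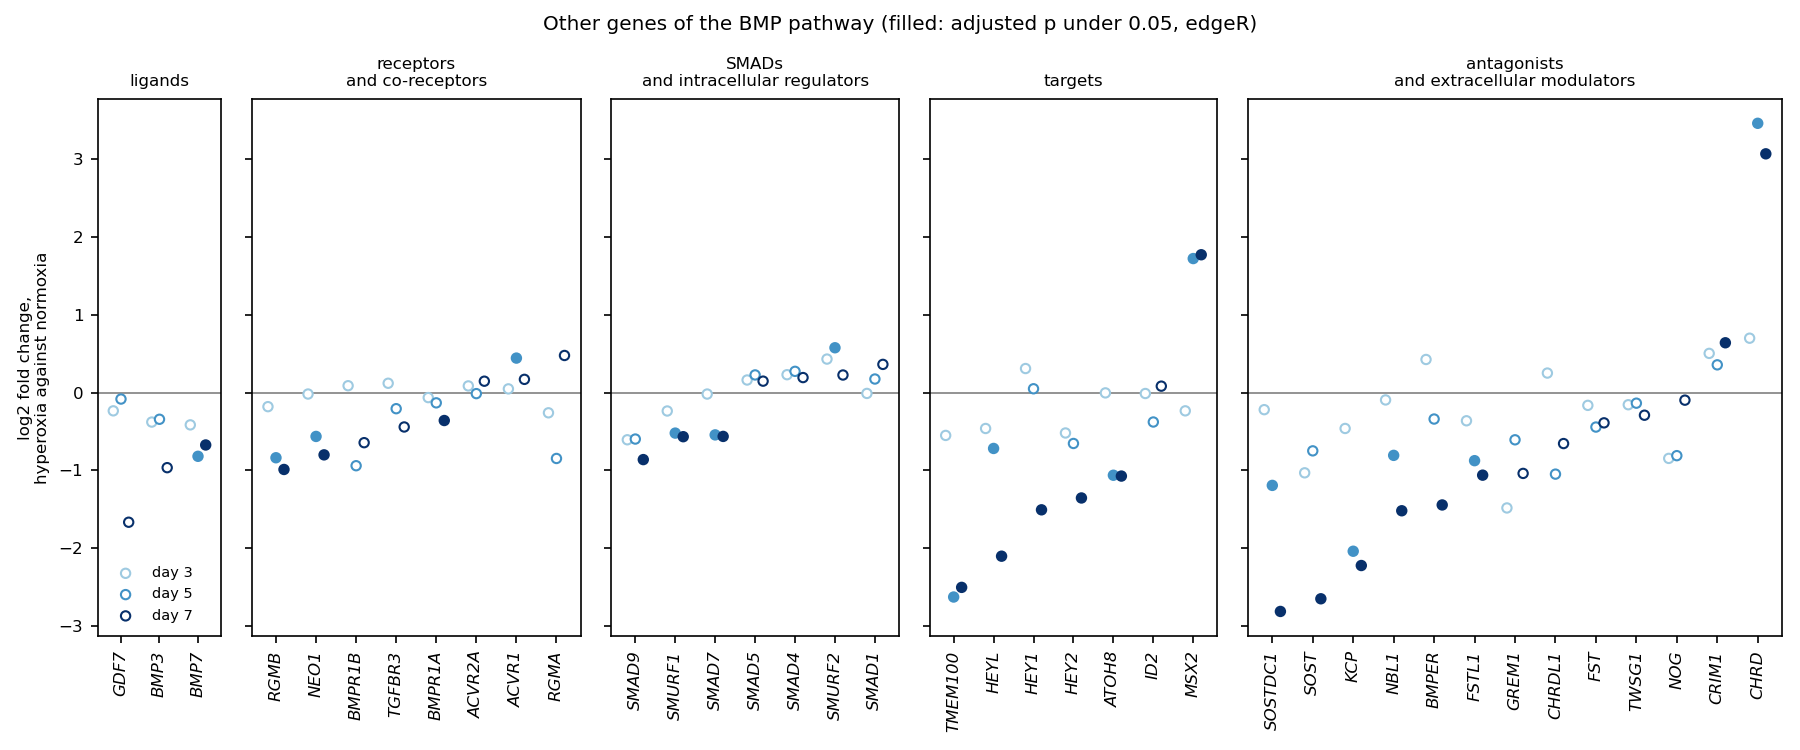
Log2 fold change of hyperoxia against normoxia (y axis) on days 3, 5 and 7 for 38 other genes of the BMP pathway (x axis), in panels by role, with filled points where the adjusted p is under 0.05. CHRD and MSX2 stand above 0 on days 5 and 7, and SOSTDC1 and TMEM100 lie below -2 on day 7.

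Of 8 other receptors and co-receptors, 3 were lower on day 7, where 23.7% of all genes were called in each direction. They were RGMB, a GPI-anchored co-receptor (log2FC -0.99, SE 0.21, edgeR adjusted p = 0.00136), NEO1, the receptor of the RGM proteins (log2FC -0.80, SE 0.16, edgeR adjusted p = 0.000906), and BMPR1A, a type I receptor (log2FC -0.36, SE 0.09, edgeR adjusted p = 0.00435). TGFBR3, a co-receptor, was called as well without HT7 replicate 1 (log2FC -0.69, edgeR adjusted p = 0.00926) or without NT7 replicate 3 (0.0312). On day 5, 1 of the 8 was higher and 2 were lower, beside 15.9% and 15.4% of all genes. The rise was that of ACVR1 (log2FC 0.44, edgeR adjusted p = 0.0289), which was not called from the samples of day 5 alone (edgeR adjusted p = 0.0721). BMPR1A had 59.3, 63.2 and 51.9 CPM in HT7 and 71.9, 79.6 and 72.4 CPM in NT7, a smaller difference than that of BMPR2 with no overlap. Of 7 SMADs and intracellular regulators, 3 were lower and 0 higher on day 7, beside 23.7% of all genes in each direction. They were SMAD9 (log2FC -0.86, SE 0.24, edgeR adjusted p = 0.00892), the ubiquitin ligase SMURF1 (log2FC -0.57, SE 0.14, edgeR adjusted p = 0.00402) and the inhibitory SMAD7 (log2FC -0.56, SE 0.17, edgeR adjusted p = 0.0146). The signal transducers SMAD1 (log2FC 0.36, 95% interval 0.04 to 0.69, edgeR adjusted p = 0.0631, but 0.00867 without HT7 replicate 2), SMAD5 (log2FC 0.15, edgeR adjusted p = 0.264) and SMAD4 (log2FC 0.19, edgeR adjusted p = 0.134) were not called. Of 3 other ligands, 1 was called on day 7, where 47.4% of all genes were called in either direction. It was BMP7, with 16.2, 13.7 and 17 CPM in HT7 and 22.2, 25.6 and 27.0 CPM in NT7 (log2FC -0.68, SE 0.16, edgeR adjusted p = 0.00358). Without HT7 replicate 2 all 3 were called, with a log2FC of -1.95 for BMP3 (edgeR adjusted p = 0.000231, against a log2FC of -0.97 with all samples) and -2.25 for GDF7 (edgeR adjusted p = 0.0497). BMP10, a ligand of ACVRL1, had 13 counts over all 17 samples and was not tested, and GDF2, which encodes BMP9, was not analysed here.

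Likeness of pattern was measured as the root mean square distance between the 6 group means of log2 CPM, each centred on its own mean. BMPR2 was closest to ABLIM3 (distance 0.0525) and CACNA1C (0.0619), ACVRL1 to TCTA (0.0609) and ABI3 (0.0761), and SMAD6 to PREX2 (0.0649) and NPY1R (0.0685). BMP4 was closest to ZNF48 and MYLPF (0.0287) and ENG to AKR7L and AKR7A3 (0.0746), each a pair at 1 locus with the same counts. Between members, BMP4 and BMP6 were nearest (0.118), followed by ENG and SMAD6 (0.175) and by ID1 and ID3 (0.188). These distances describe 6 group means and carry no test.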

How the data were processed

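Poly(A) RNA of right lung homogenates was sequenced by the authors as stranded paired-end libraries. Per the submitters' processing notes, FastQC, STAR 2.7.10a and the build OryCun2.0 were used, while the counting program is not given in the sources used here. The deposited values are raw counts per locus, not normalized, joined to Ensembl genes and human names. Of 13827 genes at 13313 loci, 948 share 434 loci and carry the counts of their locus.

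Differential expression was computed from the counts in R 4.3.3 by edgeR 4.0.16, using filterByExpr (13142 genes kept, 685 not), TMM factors (0.958 to 1.05), 6 group means fitted to all 17 samples, quasi-likelihood tests, and Benjamini-Hochberg adjustment over the genes kept. The log2FC used a prior count of 0.125. CPM came from the counts of the genes kept and the TMM factors. Intervals are at the 95% level and cover the spread between samples. Alternatives were DESeq2 1.42.0 (the study's tool), RLE size factors, no count filter, samples of 1 day alone, a replicate block, 1 gene per locus, an adjusted p under 0.01, a prior count of 2, and leaving out each sample. The procedure was tested on simulated data. Figures were drawn with matplotlib 3.10.9.

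Members, pathway genes and markers were chosen with earlier results of these data known. All members are named, and per role the 4 pathway genes with the largest called change on day 7, while the other called antagonists and targets, SMAD1, SMAD4, SMAD5, SMURF2, ID2, TGFBR3, ACVR1, BMP3, GDF7 and BMP10 were named after their values were seen. An item of the pathway list is not reported here, although the counts include it. The alternatives for single pathway genes, the endothelial scale and the target to receptor ratios were also chosen after seeing the data. Whether equal replicate numbers deviate together was checked by correlating deviations from group means. All 3 pairs exceeded 0.1 on day 3 (0.166, 0.131 and 0.199) and both pairs did on day 5 (0.264 and 0.141), though not all on day 7 (0.174, 0.109 and 0.0695), and neither labels nor methods say what the numbers stand for.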

Additional observations from a re-analysis of the deposited data

Results flagged for a closer look

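The effect of hyperoxia differed between days 3 and 7, by a test of the difference itself in edgeR, for 4 of the 10 members. On the log2 scale the day 7 effect minus the day 3 effect was -1.72 for BMPR2, -1.15 for ACVRL1, -1.60 for SMAD6 and -1.08 for ENG. BMPR2 moved from -0.22 on day 3 to -1.94 on day 7, ACVRL1 from -0.26 to -1.41, SMAD6 from 0.52 to -1.08 and ENG from 0.22 to -0.86. Without HT3 replicate 2, the sample with the highest ENG and SMAD6, the difference was -1.16 for SMAD6, still called, and -0.75 for ENG, not called (edgeR adjusted p = 0.0717).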

How the results depend on the processing

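The day 7 count of 5 members stayed at 5 or 6 in every alternative, and the day 3 count at 0. The day 5 counts moved most. Of 5 members and 17 pathway genes called, 2 and 9 passed an adjusted p under 0.01, 2 and 11 were called from the samples of the day alone, and leaving out each sample gave 1 to 4 members and 7 to 15 pathway genes. The replicate block left 3 members called on day 5, without BMP2 (adjusted p = 0.0567) and BMP4 (0.0826), and changed the side of the threshold of no other member on any day. Day 5 offers only 2 pairs of equal numbers. Under an adjusted p of 0.01 the difference between days 7 and 3 was called for 2 of the 4 members, and DESeq2 called 1 pathway gene on day 3 in place of 0. Leaving out each sample put 0 to 1 members past the DEG thresholds on day 7. Single log2FC that were not called changed sign when a sample was left out. On day 3 these ranged from -0.24 to 0.23 for BMP2, -0.40 to 0.044 for BMP6, -0.11 to 0.44 for ENG, -0.16 to 0.050 for ID1 and -0.24 to 0.0053 for ID3, on day 5 from -0.22 to 0.12 for ENG and -0.28 to 0.15 for ID3, and on day 7 from -0.32 to 0.033 for BMP2 and -0.38 to 0.13 for BMP5. The cause of these shifts was not tested, except that a stricter threshold calls fewer genes by construction. BMP2 and BMP5 had the lowest counts of the members, and the parts of depth and of the number of samples in their intervals were not separated.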
